A study of Mus musculus with 2 samples.

Results

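The cells described here are the mature oligodendrocytes of the vancomycin library in which no RNA of Klk6 was captured. Oligodendrocytes wrap the axons of the optic nerve in myelin, and Klk6 encodes kallikrein 6, a secreted serine protease. The cells were chosen by their own UMI counts of 9 genes, so levels of these genes are no finding. A cell was taken when it had at least 8 unique molecular identifiers (UMIs, 1 per captured RNA molecule) summed over the myelin genes Mog, Mag, Mal and Ermn, no Klk6 UMI, at most 1 UMI summed over the T cell genes Cd3d, Cd3e and Cd3g, and at most 1 UMI of the macrophage gene Csf1r. This held for 981 of 15726 kept cells (6.24%, exact binomial interval 5.87 to 6.63%). Another 2898 cells met the rule but held Klk6, so the 981 cells were 25.3% of 3879 mature oligodendrocytes.

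The mice were Nf1-OPG mice, which carry 1 floxed Nf1 allele and 1 Nf1 allele disrupted by a neomycin cassette (Nf1flox/neo; GFAP-Cre). They lose Nf1 in neuroglial progenitors through a Cre driven by the GFAP promoter, and which of the oligodendrocytes carry the loss was not measured. The vancomycin group received this antibiotic between 6 and 12 weeks of age, and the control group is labelled control, with PBS named as the alternative in the study design. Tissue of 10 mice was pooled at 12 weeks, and each group is 1 library labelled optic nerve. The tag ON stands in the control title and not in the vancomycin title, and the labels' protocols also describe meningeal dura, collected separately. Whether both libraries hold the same tissue was not tested. With 1 library a group no test was made, and intervals (95%) cover nothing but the error of counting.

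Oligodendrocytes arise from precursor cells marked by Pdgfra and pass through committed progenitors marked by Gpr17 before they switch on the genes of myelin. Mature oligodendrocytes are not uniform. In the mouse central nervous system, myelin-forming cells are known for Opalin, one mature type for Ptgds and another for Klk6, Hopx and Anxa5. Oligodendrocytes can also take up an interferon-responsive state with raised MHC class I and Serpina3n.

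The vancomycin library held 16596 barcodes and 144451114 UMIs, and the control library 4272 barcodes and 25609899 UMIs. Both passed the same filters, which kept 15726 and 4108 cells. Of the control cells 1 met the rule (0.0243%, interval 0.000616 to 0.136%), so the 2 treatments could not be compared for these cells, and all values below come from the vancomycin library. The libraries shared 100 cell barcodes, 7 of them among the 981 cells. Myelin was removed from the nerve suspension during preparation, per the labels' protocols, and whether that changed the share of oligodendrocytes was not tested.

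Cells without Klk6 were shallower than cells with it. The 981 cells had a median of 7500 UMIs, against 11207 in oligodendrocytes with Klk6. Across quartiles of UMIs per cell, from lowest to highest, the share without Klk6 was 50.3%, 31.9%, 9.07% and 9.90%. With each cell thinned to 2000 UMIs it was 38.4% of 3686 cells, and with 1000 UMIs 47.4% of 3820. Removing UMIs can only raise the share among the cells kept. Cells below these depths (193 and 59) were left out. Of the cells with Klk6, 312 held 1 UMI and 204 held 2, while the median was 21 (quartiles 4 and 61) and the highest cell held 708. In T cell-like cells, which should lack the gene, 2.96% held a Klk6 UMI (median 4179.5 UMIs per cell). These cells were limited in their UMIs of Mog, Mag, Mal and Ermn, so this share may lie below that of other cells. Of 2857 kept cells that passed the gate of no class, 12.4% held a Klk6 UMI (median 2414 UMIs per cell), and what these cells are was not tested.

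**Figure D1:**
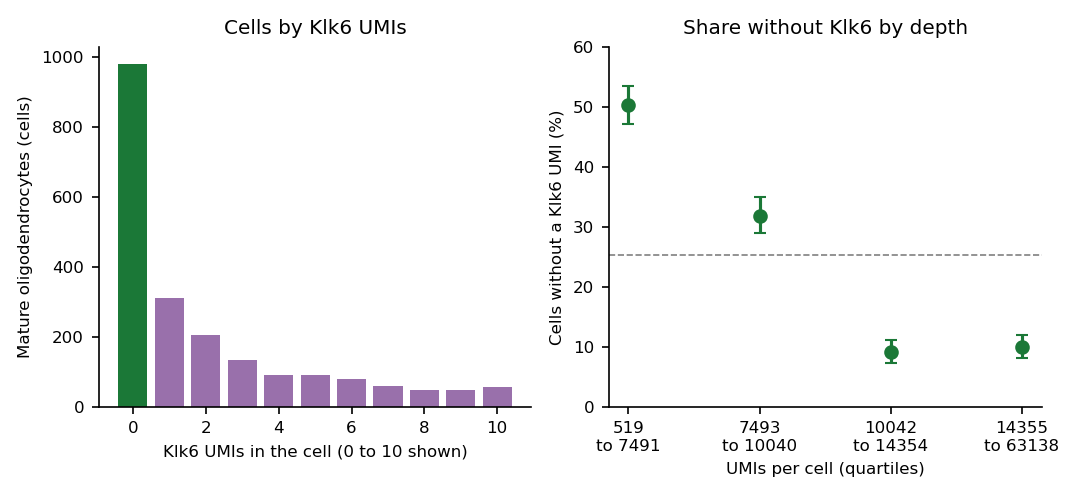
Mature oligodendrocytes of the vancomycin library by the number of Klk6 UMIs (left; bars are cells, green for 0) and the percentage without a Klk6 UMI by quartile of UMIs per cell (right; points with exact 95% binomial intervals, dashed line at 25.3% for all). The bar at 0 stands for 981 cells, and the share fell below 10% in the 2 upper quartiles.

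The cells at the edge of the rule were shallow. The 30 cells with 8 or 9 UMIs of the 4 myelin genes and no Klk6 had a median of 1099.5 UMIs in all and an Opalin level of 55.6 CPM (UMIs summed over the cells and scaled to a fixed total, as CPM), while the 46 cells just outside, with 6 or 7, had 1436.5 UMIs and 30.2 CPM. The median of the 981 cells was 107 UMIs of the 4 genes, against the minimum of 8. The 312 cells with exactly 1 Klk6 UMI had 6706 CPM of Ptgds and 40.1 CPM of Hopx, values that lie between those of the 981 cells and of all cells with Klk6 given below.

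The given markers fitted the label in the class as a whole. Opalin, a membrane protein of myelinating oligodendrocytes, stood at 1272 CPM in the 981 cells and at most at 2.63 CPM in any other cell class apart from oligodendrocytes with Klk6. Cells of these other classes were limited in their UMIs of Mog, Mag, Mal and Ermn, so low myelin RNA there was partly set by their choice. Car2, carbonic anhydrase 2, stood at 3328 CPM, against 3416 CPM in oligodendrocytes with Klk6. The highest of the other classes was natural killer cell-like cells, at 431 CPM. Gpr37, a receptor of maturing oligodendrocytes, stood at 994 CPM, against 794 CPM in oligodendrocytes with Klk6 and 133 CPM in astrocyte-like cells. Mog and Mal, both used by the rule, had 2104 and 6398 CPM. Of 7 genes listed for Schwann cells, the myelinating cells of peripheral nerve, 4 were measured against the other cell types, with 2 higher and 1 lower (median log2 ratio 0.62), and the summed level was 584 CPM in cells without Klk6, against 105 CPM in the other cell types. The list holds genes that are not restricted to Schwann cells, such as the transcription factor gene Sox2, at 33.6 against 5.99 CPM. Of Prx, Ncmap and Pmp2 on that list 1, 3 and 3 UMIs were found over all 981 cells.

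Next to the other gated cell types of the library (7978 cells, without either mature oligodendrocyte class), 1728 of 15713 measured genes passed a 2-fold line upwards (11.0%) and 1860 passed it downwards (11.8%). To pass, the log2 ratio after adding 10 CPM to both levels had to reach 1 or -1, and its Poisson interval had to leave out no difference. Cldn11, the claudin that seals myelin layers, had 3388 CPM, against 9.82 CPM in the other cell types. Ptgds, which makes prostaglandin D2 and is also secreted as a lipid carrier, had 11697 CPM against 91.0 CPM, with fibroblast-like cells at 6044 CPM as the next class. Among the highest genes were also Aplp1, Tubb4a (a tubulin of oligodendrocytes), Nkain2 and Hcn2 (a pacemaker-type cation channel), with log2 ratios between 6.01 and 6.79. The lowest were C1qa, C1qb and C1qc, complement genes of microglia, and Nkg7 and Ccl5 of cytotoxic lymphocytes, with log2 ratios between -5.43 and -5.17.

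All 13 measured genes of the compact myelin list were higher than in other cell types, with a median log2 ratio of 5.28, against -0.04 over all measured genes. Both sides were chosen by myelin RNA, high here and limited in the other cell types, so this contrast is a description and no test. The list of channels and gap junctions (10 of 10 higher, median 3.45) included Gjb1, the connexin 32 that couples myelin layers, at 596 CPM against 3.39 CPM. The list of axon contact and paranode (10 of 11 higher, median 3.83) included Hapln2, a link protein of the nodal matrix, at 560 CPM against 1.62 CPM. Of 19 genes of cholesterol synthesis 14 were higher (median 1.57), among them Hmgcs1 at 555 CPM against 63.4 CPM. For iron, 2 of 9 were higher and 2 lower, and the ferritin gene Fth1 stood at 18659 CPM against 3654 CPM. Immediate early genes were low next to the other cell types, with 14 of 15 lower (median -2.51) and Fos at 289 CPM against 1131 CPM. Over oligodendrocytes with Klk6, 0 of the 15 were called in either direction (median 0.27). Without groups 4 to 6 of the cells (described below), 3 were lower in that comparison. The interleukin gene Il33, an alarmin of glia, had 383 CPM against 9.55 CPM. Fibroblast-like cells, at 236 CPM, were the highest of the other cell types, and oligodendrocytes with Klk6 had 288 CPM.

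**Figure D2:**
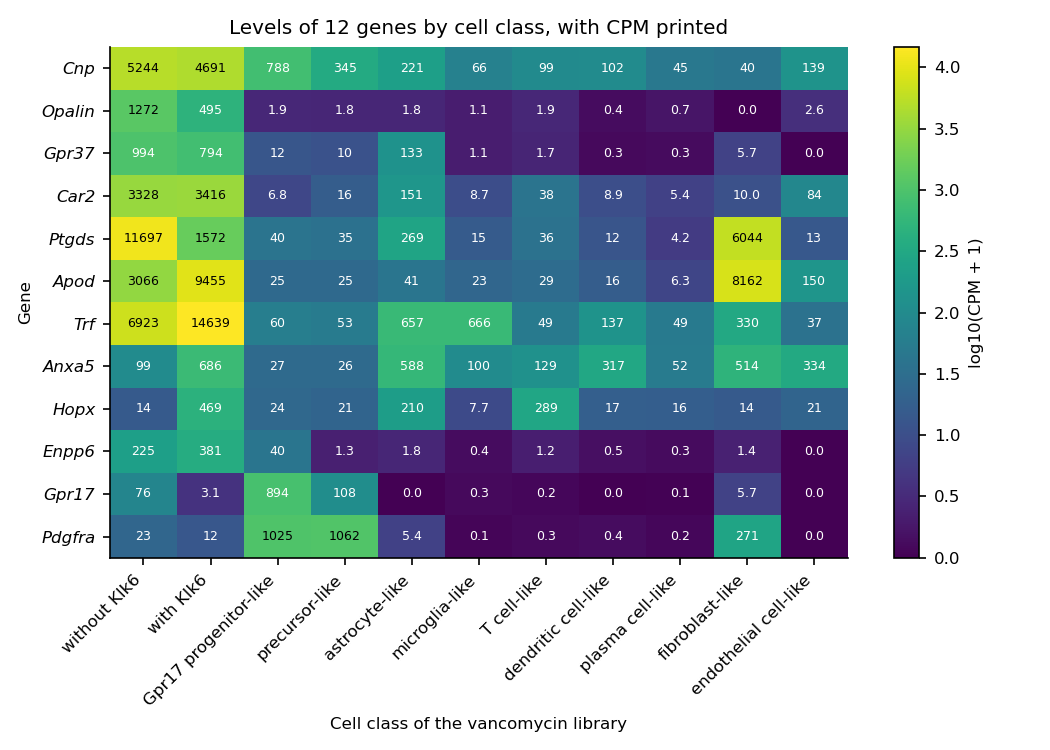
Level of 12 genes (rows) in 11 cell classes of the vancomycin library (columns), with CPM of the summed UMIs printed and colour on a log10(CPM + 1) scale. Opalin and Gpr37 were high in both oligodendrocyte classes, Ptgds was highest in cells without Klk6, and Hopx and Anxa5 were lower there than in oligodendrocytes with Klk6.

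Cells gated by Gpr17 (256 cells, median 7186 UMIs), called progenitors here, stand, as background, for an earlier stage of the same lineage. Their Pdgfra level was 1025 CPM, against 1062 CPM in precursor-like cells, so this class does not separate committed progenitors from precursors. Over these progenitors, 812 of 11146 genes were called higher (7.29%) and 1829 were called lower (16.4%), so 30.7% of the calls were higher. TMM scaling shifts the log2 ratios of this comparison by 0.45 before 10 CPM are added, and by less for genes of low level afterwards. With TMM scaling 1175 genes were higher and 1294 lower (47.6% higher), so the balance of the 2 directions rests on the scaling. Aspa, which breaks down N-acetylaspartate taken up from axons, had 719 CPM in cells without Klk6, against 1.45 CPM in progenitors, and the iron carrier gene Trf had 6923 against 59.8 CPM.

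All 13 precursor genes were lower than in progenitors, a class that holds Pdgfra like the precursor-like cells (median log2 ratio -4.35, against -0.31 over all measured genes). Pdgfra, the growth factor receptor of precursors, had 23.1 CPM in cells without Klk6 and 1025 CPM in progenitors, and the chondroitin sulfate proteoglycan gene Cspg5 had 75.3 against 2755 CPM. Etv4 and Etv5, transcription factors that respond to MAP kinase signalling, had 4.13 and 8.62 CPM in cells without Klk6, against 127 and 172 CPM in progenitors. Of 16 measured genes of the Nf1 and RAS-MAPK list 6 were lower and 1 higher, the higher one being Mapk3 (ERK1) at 296 CPM in cells without Klk6 against 43.0 CPM in progenitors. Nf1, a brake on RAS, had 46.9 CPM in cells without Klk6, against 42.2 CPM in oligodendrocytes with Klk6 and 85.9 CPM in progenitors, and was called in neither comparison. Immediate early genes were lower in 9 of 15, with Egr1 at 123 CPM in cells without Klk6 and 1184 CPM in progenitors. Of glycolysis genes 6 of 12 were lower, among them Pfkm, muscle phosphofructokinase, at 5.22 against 104 CPM, while Gapdh had 1708 against 1713 CPM.

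The comparison closest to the rule was with oligodendrocytes that hold Klk6. It describes the 2 sides of the Klk6 cut and tests nothing, since Klk6 chose the cells and other genes vary with it. Of 13050 genes measured with at least 50 UMIs, 153 were called higher (1.17%) and 182 called lower (1.39%) in cells without Klk6. Immunoglobulin genes and Jchain made up 27 of the 153 and 23 of the 182.

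Most of the 153 higher genes were not called without groups 4 to 6, which hold 193 cells. With groups 4 to 6 of the cells left out (described below), 42 of the genes measured were higher (0.331%), 26 of them shared with the 153. Dropping from both classes every cell with over 0.2% of its UMIs from markers of other cell types, including precursors, left 46 genes higher (0.387%), of which 32 were among the 153. Lower genes numbered 346 (2.73%) without groups 4 to 6 and 208 (1.75%) under the marker filter, with 165 and 147 of the 182 shared. Both filters were added after the data were seen. The first drops cells from 1 side only, so lower calls of immune genes under it, such as MHC class II, were not read.

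Ptgds and Opalin were higher in cells without Klk6 under both filters. Ptgds (ENSMUSG00000015090, chr2:25466709-25470046, GRCm38) had 11697 CPM, against 1572 CPM with Klk6, a ratio of 7.44 (7.36 to 7.52). Over single cells its median was 64.6 per 10000 UMIs without Klk6 (quartiles 12.5 and 176), against 0.807 with Klk6 (0 and 7.93), so the quartiles of the 2 classes did not meet. At 2000 UMIs per cell, 86.3% of cells without Klk6 and 36.6% of cells with Klk6 held a Ptgds UMI, against 2.97% of T cell-like cells. Opalin (chr19:41061710-41077113, GRCm38) had 1272 CPM against 495 CPM, a ratio of 2.57 (2.51 to 2.63), and at 2000 UMIs it was found in 84.7% of cells without Klk6 and 48.3% of cells with Klk6.

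Other genes that were higher under both filters had lower levels. Grm7, a metabotropic glutamate receptor, had 230 CPM in cells without Klk6 against 68.1 CPM with Klk6, and Erbb4, a receptor for neuregulins, had 252 against 119 CPM. The cell cycle inhibitor gene Cdkn1a had 171 against 69.1 CPM. The small secreted protein gene Wfdc18, listed among genes of myelin-forming oligodendrocytes, had 81.6 against 28.6 CPM. Grm7 and Erbb4 were picked after their values were seen. Of the 6 genes of that list, Opalin and Wfdc18 were at least 2-fold higher, and Tspan2, a tetraspanin of myelinating cells, had 1521 against 846 CPM (log2 ratio 0.84, not called; 1.07, called, without groups 4 to 6; 0.99, not called, under the marker filter).

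Both measured genes of the list for the Klk6 type, Hopx and Anxa5, were lower. Hopx (ENSMUSG00000059325, chr5:77086988-77115121, GRCm38), a homeodomain-only cofactor, had 118 UMIs over the 981 cells (14.3 CPM) and 17314 UMIs (469 CPM) in cells with Klk6, a ratio of 0.0305 (0.0253 to 0.0366). It was found in 2.87% of cells without Klk6 and 34.6% of cells with Klk6 at 2000 UMIs. T cell-like cells hold Hopx themselves (41.7%) and give no background for it. Anxa5, annexin A5, a binder of phosphatidylserine, had 99.4 CPM without Klk6 against 686 CPM with it. Other genes, named for their low ratios and on no list of the Klk6 type, were lower too. Klk8, a neighbouring kallikrein gene on chromosome 7, had 3 UMIs (0.364 CPM) without Klk6 and 163 CPM with it. Its level with Klk6 came mostly from cells with at least 20 Klk6 UMIs, at 253 CPM. At 1, 2 to 4, 5 to 9 and 10 to 19 Klk6 UMIs it stood at 1.11, 0.787, 3.60 and 5.84 CPM. Microglia-like cells had 86.9 CPM of Klk8. The ubiquitin hydrolase gene Uchl1 had 28.8 against 260 CPM, the microsomal glutathione transferase gene Mgst3 39.6 against 313 CPM, and the sodium pump regulator gene Fxyd1 2.79 against 68.4 CPM. Ldhb, a lactate dehydrogenase subunit on the glycolysis list, had 83.2 against 297 CPM. Of the 7 genes listed for the Ptgds type Ptgds was the 1 called higher and 1 was called lower (median log2 ratio 0.56). The lower one was Apod, a lipid carrier, at 3066 CPM without Klk6 against 9455 CPM with it.

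Trf and Anln lay close to the 2-fold line. Trf had 6923 CPM without Klk6 and 14639 CPM with it (log2 ratio -1.08), but -0.83 without groups 4 to 6 and -0.91 under the marker filter, past the line in neither. Anln, a scaffold of septins in myelin, had 304 against 633 CPM (-1.04, and -0.77 and -0.88). Gjb1 had 596 against 1106 CPM (-0.88) and was not called.

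Few genes of the shared machinery of myelin were called. Of 13 compact myelin genes Opalin alone was called, and the median log2 ratio was 0.16. Without groups 4 to 6, 2 of the 13 were called higher (median 0.32), and under the marker filter 1 (median 0.24). Of 11 genes of axon contact and paranode 1 was called lower (median -0.08), and 1 under each filter. Car2 had 3328 CPM without Klk6 against 3416 CPM with it, and the quartiles of its level per cell were 25.4 and 48.3 per 10000 UMIs without Klk6, against 25.1 and 48.5 with it. Cholesterol synthesis had no call among 19 genes (median -0.27), channels and gap junctions none among 10, and growth factor receptors and ligands none among 12. Myelin lipid synthesis had 1 call among 19, the desaturase gene Fads1 at 32.6 against 7.67 CPM (log2 ratio 1.27). Its log2 ratio was 0.98, not called, without groups 4 to 6 and 1.04, called, under the marker filter. Ugt8a, which makes galactosylceramide, had 992 against 1199 CPM. Among 13 lineage transcription factors, Olig2 and Tcf7l2 were called higher, and neither was under either filter. Olig2, needed for the lineage, had 224 against 104 CPM, with log2 ratios of 1.03 for all cells, 0.89 without groups 4 to 6 and 0.90 under the marker filter. No gene of 17 in the Nf1 and RAS-MAPK list was called (median -0.08).

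**Figure D3:**
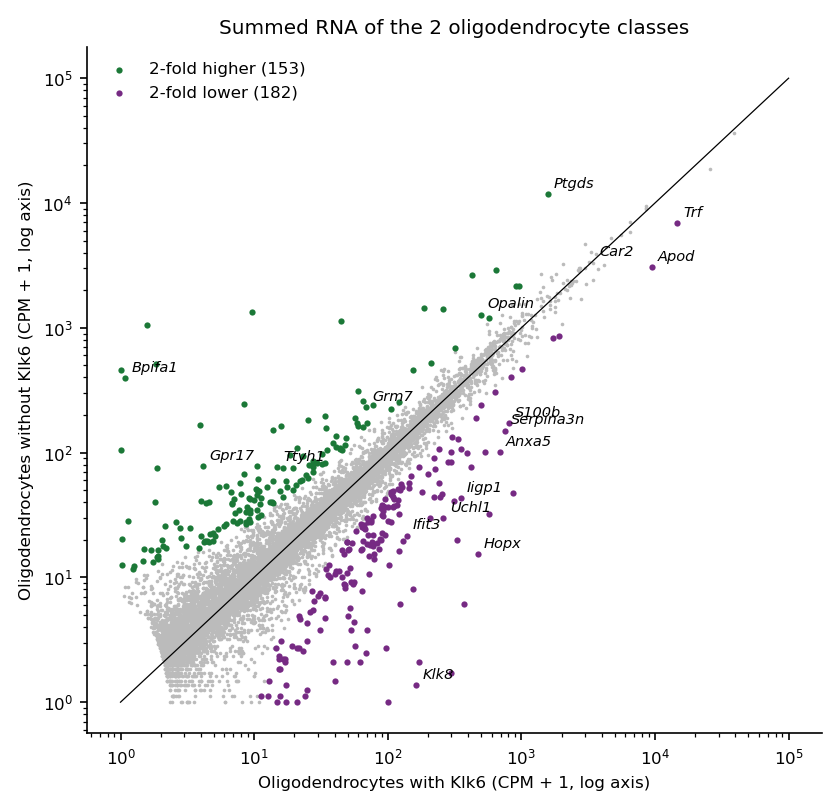
Summed RNA in oligodendrocytes without Klk6 (vertical) and with Klk6 (horizontal), in CPM + 1 on log axes, 1 point per gene with at least 50 UMIs; green points are the 153 genes at least 2-fold higher and purple points the 182 at least 2-fold lower. Ptgds and Opalin lie above the diagonal, Hopx, Klk8, Anxa5 and Iigp1 below it, and Car2 near it.

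Genes of the interferon response and of MHC class I were low in cells without Klk6. Of 12 genes of the type I interferon list 9 were at least 2-fold lower and none higher, with a median log2 ratio of -1.30, against 0.01 over all measured genes and 1.39% of genes called lower. Of 9 genes of MHC class I and peptide loading 6 were lower and none higher (median -1.13). Under the marker filter 10 of 12 and 8 of 9 were lower. Ifit3, an antiviral protein, had 20.6 CPM without Klk6 and 138 CPM with it, and Ifi27l2a had 76.3 against 419 CPM. Iigp1, an interferon-induced GTPase, had 42.4 against 350 CPM, and Zbp1, a sensor of nucleic acids in Z form, 11.7 against 101 CPM. H2-D1, a classical MHC class I chain, had 861 against 1897 CPM, and the proteasome subunit gene Psmb8, which shapes peptides for MHC class I, 82.5 against 284 CPM. Cd274, which encodes PD-L1, had 18.2 against 48.5 CPM.

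Interferon-activated factors are known to bind the interferon-stimulated response element (ISRE). The ISRE-type motif, searched as GAAANNGAA on both strands in the 250 bases before each RefSeq gene start (GRCm38.p6), was found in 5 of the 7 type I interferon genes with a promoter in the table (71.4%) and in 1 of 7 MHC class I genes. It was found in 28 of the 115 genes called lower that have a promoter in the table (24.3%) and in 7.44% of 10077 measured genes. The GAS-type motif TTCNNNGAA was found in 12 of the 115 (10.4%) and in 7.14% of the measured genes. The windows below are shown because they are the interferon-list genes called lower that hold the ISRE-type motif. They are given 5′ to 3′ on the gene's strand, 80 bases each, with the motif in capitals; in Ifit1 and Ifit3 the motif lies on the other strand, and neighbouring matches overlap in Ifit1 and Isg15. They lie at chr19:34640770-34640849 (plus strand), chr19:34583392-34583471 (plus strand) and chr4:156200840-156200919 (minus strand). A match of letters shows neither binding nor a cause.
Ifit1: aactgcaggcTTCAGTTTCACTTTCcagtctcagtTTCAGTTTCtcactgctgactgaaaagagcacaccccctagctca
Ifit3: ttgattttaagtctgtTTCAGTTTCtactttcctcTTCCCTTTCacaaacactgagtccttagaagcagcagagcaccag
Isg15: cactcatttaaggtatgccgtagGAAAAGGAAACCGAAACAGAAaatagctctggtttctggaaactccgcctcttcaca

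Fewer of the cells without Klk6 held several of these RNAs. At 2000 UMIs per cell, at least 5 UMIs of the 12 interferon genes were found in 47 of 906 cells without Klk6 (5.19%, interval 3.84 to 6.84) and in 661 of 2780 cells with Klk6 (23.8%, 22.2 to 25.4). For the 9 MHC class I genes the shares were 20.2% and 39.7%. Cells with Klk6 were not uniform, since the interferon share was 7.41% at 1 to 9 Klk6 UMIs and 32.6% at 10 or more. The highest cell without Klk6, a cell of group 4, held 44 of 2000 UMIs from the 12 genes, and the median cell held 1. Groups 1 to 6 (described below) held 1, 5, 15, 14, 9 and 3 of the 47 cells.

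Of 9 genes listed as raised in disease-associated oligodendrocytes, 4 were lower and 1 higher. Serpina3n, a secreted protease inhibitor, had 149 CPM without Klk6 and 752 CPM with it, and the complement gene C4b had 98.1 against 388 CPM. H2-D1 and B2m are on this list and on the MHC class I list, and Cdkn1a was the higher one. Il33 had 383 against 288 CPM and was not called. Among 13 measured signals to immune cells 1 was lower (Cd274), and Ptn, pleiotrophin, had 896 against 573 CPM.

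Levels of several genes ran in 1 direction along the number of Klk6 UMIs. Through 0, 1, 2 to 4, 5 to 9, 10 to 19 and at least 20 Klk6 UMIs, Ptgds stood at 11697, 6706, 3241, 2738, 1494 and 576 CPM. Opalin stood at 1272, 1113, 975, 695, 546 and 313 CPM. Hopx ran the other way, at 14.3, 40.1, 69.0, 137, 221 and 666 CPM, and Anxa5 at 99.4, 144, 179, 293, 346 and 936 CPM. Car2 stayed between 3208 and 3889 CPM. The summed level of the 12 interferon genes was 779, 732, 805, 944, 1060 and 2749 CPM, so most of its difference lay in the highest bin, which held 1487 cells. The MHC class I sum was 1946, 2064, 1923, 2506, 2550 and 5424 CPM. Cells with 1 and with 2 to 4 Klk6 UMIs were thus near cells without Klk6 in both sums. Median UMIs per cell also rose along these bins, at 7500, 8281.5, 8610.5, 9157, 10238.5 and 14126, and the part of depth in these steps was not tested.

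**Figure D4:**
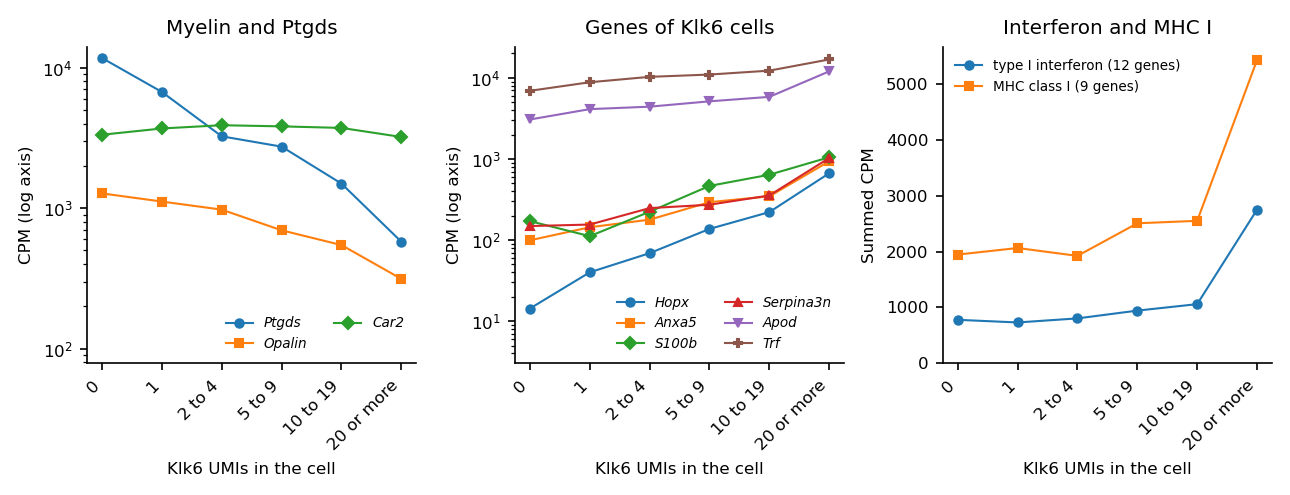
Levels in mature oligodendrocytes binned by Klk6 UMIs per cell (horizontal): single genes in CPM on a log axis (left and middle) and summed CPM of 2 gene lists on a linear axis (right), 1 point per bin. Ptgds and Opalin were highest at 0 Klk6 UMIs, Car2 was near level, Hopx, Anxa5, Apod and Trf were lowest at 0, and the 2 lists were highest at 20 or more.

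Clustering of the 981 cells alone gave 6 groups, and the genes that define a group are given as its description. Groups 1, 2 and 3 (341, 225 and 222 cells, 80.3% of the 981) were oligodendrocytes by every given marker, held 0 cells with a doublet score above 0.2, and had Opalin at 1692, 1183 and 1618 CPM. Their median UMIs were 6672, 8031 and 8617. Cd74, an MHC class II companion used here as a marker of immune RNA, stood between 23.8 and 36.0 CPM in them. The borders between these 3 groups moved with the clustering. At a Leiden resolution of 0.3, which gave 5 groups, 222 cells of group 2 and 183 of group 3 fell into 1 group of 421 cells, and at 0.8, which gave 9, no group held more than 192 of the 341 cells of group 1.

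The 3 groups differed in Ptgds and in interferon-induced GTPases. Ptgds stood at 15374 CPM in group 1, 4432 CPM in group 2 and 20401 CPM in group 3. Group 2 was led by Anln at 589 CPM, against 223 CPM in all other cells without Klk6, with Robo1 (an axon guidance receptor), Rasgrp3 (a RAS activator) and Rapgef5 among its 5 highest genes. Group 3 was led by Synpr, a synaptic vesicle protein, at 68.6 against 8.50 CPM, then Iigp1 (109 against 19.3 CPM), Igtp (133 against 29.6 CPM), Ctps and H2-D1 (1560 against 620 CPM). Iigp1 was found in 21 of its 222 cells and Igtp in 33, so these levels came from a small part of the group, while H2-D1 was found in 148. At 2000 UMIs the share of cells with at least 5 UMIs of the type I interferon list was 0.298%, 2.29% and 6.82% in groups 1, 2 and 3, and for the MHC class I list 8.63%, 4.59% and 31.4%. The 5 leading genes of group 1 were all under 2-fold over the others, with Arl4d first at 142 against 81.0 CPM.

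Group 4 (147 cells) was shallow and mixed. Its median was 3648 UMIs, 26 cells had a doublet score above 0.2, and 89 held over 0.2% of UMIs from other-cell markers. Opalin stood at 604 CPM and Car2 at 1686 CPM there. Its highest genes were Bpifa1, the antibody joining chain gene Jchain at 13814 CPM, Cd74 at 8075 CPM and the MHC class II genes H2-Aa and H2-Ab1. Bpifa1, a secreted airway protein, had 3255 UMIs over the 981 cells, 3253 of them in 1 cell, so its log2 ratio of 5.33 over cells with Klk6 came from that cell. That cell passed the marker filter, where Bpifa1 was still called higher (501 against 0.0613 CPM) and is 1 of the 46 genes. Without groups 4 to 6 it was not called. The hormone granule gene Chga had 934 UMIs in group 4, all in 7 of the 147 cells (761 CPM), and stood between 2.22 and 20.5 CPM in the other groups.

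Group 5 went against the label in part. Its 25 cells (median 20509 UMIs) had Car2 at 90.3 CPM, Opalin at 152 CPM and Mal at 187 CPM. The group was led by Tubb2b (2154 CPM), Gpr17 (1176 CPM), Tnr (2316 CPM), Bmp4 (632 CPM) and Rtn1 (2115 CPM), and held Enpp6 at 1789 CPM and Bcas1 at 2548 CPM. Enpp6, a choline phosphodiesterase, Bcas1 and Tcf7l2 (605 CPM) are known from newly formed oligodendrocytes, and Bmp4 and Gpr17 from committed progenitors. Cnp, an enzyme of the myelin sheath, stood at 5784 CPM there and Mag at 1947 CPM, so the 25 cells held myelin RNA. Of the given markers, Car2 was found in 4 of them, Mal in 5, Gpr37 in 12, Opalin in 16 and Mog, at 620 CPM, in 24. In this group 1 cell had a doublet score above 0.2.

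Group 6 (21 cells, median 14303 UMIs) was led by Cspg5 (1830 CPM), Pdgfra (617 CPM), Kcnd2, Ptprz1 and Nrxn3, and carried these beside the given markers. Opalin stood at 662 CPM, Mog at 941 CPM, Mal at 3313 CPM, Gpr37 at 538 CPM and Car2 at 2217 CPM, each in at least 20 of the 21 cells. Of its 21 cells 10 had a doublet score above 0.2. Groups 5 and 6 came back whole, with 25 and 21 cells, at Leiden resolutions of 0.3 and 0.8. With cells above a doublet score of 0.2 left out, which gave 5 groups, the remaining 24 and 11 cells fell together into 1 group of 35 cells. The precursor genes Gpr17, Tnr, Neu4 and Lhfpl3 were high in groups 5 and 6 and at most 12.3 CPM in groups 1 to 4. Over all 981 cells Gpr17 had 76.4 CPM, against 3.12 CPM with Klk6, and in groups 1, 2 and 3 it stood at 0, 1.11 and 5.68 CPM. Tnr had 161 against 14.9 CPM, with log2 ratios of 2.78 for all cells and -1.14 without groups 4 to 6, and Rtn1 152 against 12.7 CPM, with 2.83 and -0.95. Of 13 precursor genes 8 were called higher for all cells, with a median log2 ratio of 1.16, and without groups 4 to 6 none was higher and 5 of 12 measured were lower, lower calls that were not read because this filter drops cells from 1 side only. Under the marker filter, which uses precursor markers itself, 4 were still measured and none was called in either direction (median -0.25). Enpp6 had 225 against 381 CPM (log2 ratio -0.73), and -1.33 without groups 4 to 6.

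**Figure D5:**
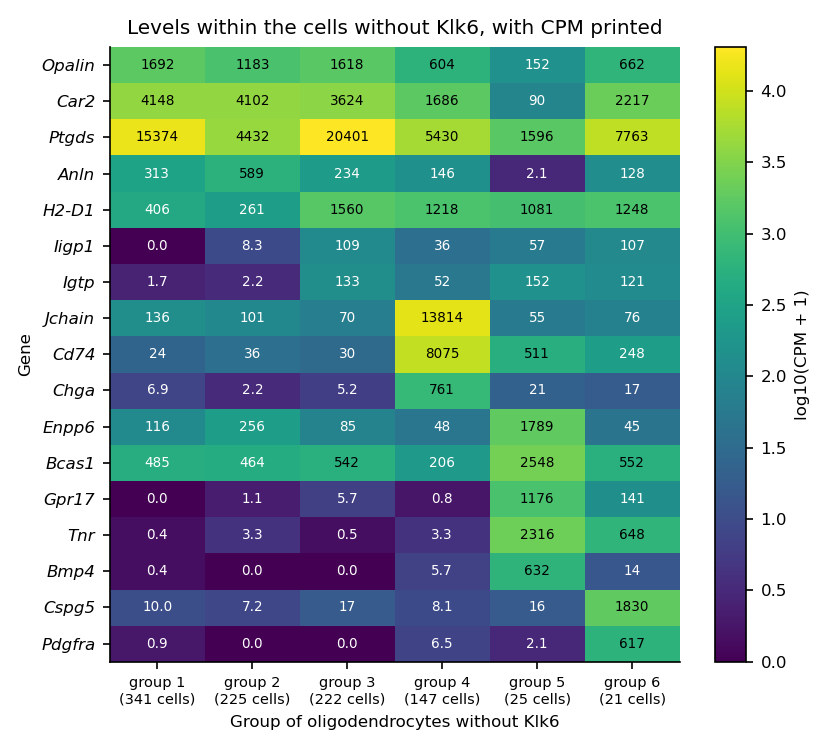
Level of 17 genes (rows) in the 6 groups of oligodendrocytes without Klk6 (columns, with cell numbers), with CPM printed and colour on a log10(CPM + 1) scale. Groups 1 to 3 share high Opalin and Car2, group 4 holds Jchain and Cd74, group 5 holds Gpr17, Enpp6 and Bcas1, and group 6 holds Cspg5 and Pdgfra.

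Markers of other cell types were present in part of the 981 cells, with 96 cells (9.79%) reaching the gate of at least 1 other class, against 204 of the cells with Klk6 (7.04%). In groups 1 to 3 this held for 4 cells (0.508%), and in groups 4 to 6 for 92 (47.7%). The summed level of 7 B and plasma cell markers was 5004 CPM in cells without Klk6 and 1436 CPM with Klk6, of MHC class II 2338 and 1332 CPM, and of T cell markers 3.52 and 1.65 CPM. Without cells of over 0.2% other-cell UMIs the B and plasma cell sum was 116 CPM without Klk6 and 90.5 CPM with Klk6. The part of these UMIs in each single difference was not tested beyond the 2 filters given.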

How the data were processed

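The authors deposited raw counts (UMIs of each gene in each barcode) for 1 vancomycin and 1 control library, made with the 10x Genomics 5′ kit (v2). Per the file headers the counts came from Cell Ranger 7.2.0 (vancomycin) and 6.0.1 (control), and the submitters' processing notes name mm10 and Partek. Intron counting was not given in the sources used here. Barcodes were kept from 500 UMIs and 200 genes upwards, with mitochondrial genes holding no more than 20% of UMIs. Other cell classes were gated on marker UMIs, with an upper limit on the UMIs of Mog, Mag, Mal and Ermn. UMIs were summed over the cells of a class and scaled to CPM. A gene was measured with at least 50 UMIs over both classes, and called when the log2 ratio after adding 10 CPM was at least 1 in size and the exact conditional Poisson interval (95%) left out 1. The genes of the selection rule stayed out of counts and lists. Shares have exact Clopper-Pearson intervals. Intervals cover counting error only, cells are not replicates, and no p-value was computed. To compare shares of cells, each cell was thinned to 2000 UMIs, which left out 75 cells without Klk6 and 118 with Klk6. Doublets were kept and scored by simulated doublets (score above 0.2), and cells were also left out by that score as an alternative. Groups came from 2000 variable genes, 20 principal components, 15 neighbours and Leiden clustering at resolution 0.5. A form of the ISRE motif that is 1 letter longer was searched first, and its counts are not given. The ratio calculation was tested on simulated data. edgeR 4.0.16 and DESeq2 1.42.0 gave scaling factors for alternatives only, in R 4.3.3, and other steps used Python 3.11.15, numpy 2.4.6, scipy 1.17.1, scikit-learn 1.9.0 and igraph 0.11.9.

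Genes named were the 10 highest and 10 lowest ratios over oligodendrocytes with Klk6, 15 and 5 over other cell types and 8 and 8 over progenitors, of which a selection is printed, with at least 50 CPM in the higher class. Added to these were the given markers, up to 4 genes of each list (2 by level and 2 by ratio), the 5 highest genes of each group, and Nf1. Genes needed to describe a group or a class are named beside it. The cells and gene lists were chosen with earlier results of these data known. Alternatives covered the filters, the pseudocount, scaling, depth, doublets and the fold.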

Additional observations from a re-analysis of the deposited data

How the results depend on the processing

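The number of cells without Klk6 was 981, and between 788 and 1060 under the 7 alternatives run. Their share of mature oligodendrocytes, 25.3%, was 38.4% and 47.4% with cells thinned to 2000 and 1000 UMIs and 33.3% with 1 Klk6 UMI allowed. Over cells with Klk6, the genes higher (153) and lower (182) numbered 614 and 488 with 1 CPM added, 39 and 54 with 50 CPM, and 472 and 454 at 1.5-fold. The higher genes were 80 with cells weighted equally and 81 after thinning. In 2 alternatives added after the data were seen, the higher genes were 46 without cells of over 0.2% other-cell UMIs and 42 without groups 4 to 6, which had 346 lower genes. Over other cell types (1728 and 1860) there were 2801 and 4037 with 1 CPM, 824 and 740 with 50 CPM, and 3006 and 2979 at 1.5-fold. Over progenitors (812 and 1829) there were 467 and 649 with 50 CPM and 1321 and 3542 at 1.5-fold, and the lower genes were 1047 after thinning and 943 at a minimum of 200 UMIs. Log2 ratios over cells with Klk6 turned negative without groups 4 to 6 for Rtn1 (-0.95), Tnr (-1.14), Gpr17 (-0.10), Marcks (-1.51), Lhfpl3 (-1.57), Fyn (-0.075), Hspb1 (-0.39) and the precursor median (-0.72), and without cells of over 0.2% other-cell UMIs for Tnr (-0.14) and Lhfpl3 (-0.53). Over progenitors the medians of B and plasma cell markers (-0.12 without those cells and -0.12 without groups 4 to 6) and of endothelial and pericyte markers (-0.00145 and -6.25e-05) turned negative. All these medians were taken over the genes measured with all cells, 6 and 4 for the last 2 lists. After either filter, 2 of the 7 B and plasma cell genes and 0 of the 7 endothelial and pericyte genes were still measured, so no direction was read. The cause of these changes was not tested. No paired analysis was possible because each treatment has 1 library, and for the same reason no replicate could be left out. Among the cells kept, thinning can only raise the share without Klk6. It also left out 193 cells at 2000 UMIs and 59 at 1000 UMIs, which can move the share in either direction. A count of 0 does not show that a cell lacks the RNA.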
